A study of Mus musculus with 4 samples.

Results

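Complement is a cascade of plasma proteins and proteases that marks targets and attracts leukocytes. The classical pathway opens when C1q binds a surface, C1r activates C1s and C1s cleaves C4 and C2, whereas the alternative pathway amplifies deposited C3 through factors B and D. Both meet at C3, and inhibitors such as C1 inhibitor and decay-accelerating factor limit the cascade. The liver supplies most circulating complement, but fibroblasts, macrophages and epithelial cells also transcribe these genes.

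Transcripts of 9 such genes were examined in reconstituted ovaries (rOvaries), out of 54021 gene symbols counted: C3, C1ra, C1s1, C4b, C2, Cfb, Cfd, Serping1 and Cd55. They were chosen by name as components and regulators of the classical and alternative pathways. The comparison asks how their transcripts differ between rOvaries of recipients with and without INK128. The rOvaries grew for 1 month under the kidney capsule of ovariectomized females from aggregates of primordial germ cells and gonadal somatic cells, both taken from female fetuses with a C57BL/6 background that carried actin-GFP. All recipients were G2 Terc-/- mice in C57BL/6 background, about 10 weeks old, which lack the RNA of telomerase, so the controls share that deletion. The 2 INK128 libraries (replicates 1 and 2) came from recipients given the mTOR inhibitor INK128 in drinking water, at 0.75 uM per g by the labels. The 2 Control libraries (replicates 1 and 3) came from recipients without it. Nothing in the labels says how many animals each library stands for, so p-values measure the spread between these libraries.

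Before the groups were compared, the libraries were compared with each other. Counts summed to between 19130209 and 23029089 per library. CPM below are read counts scaled to a common library total. Across the 11758 genes whose mean CPM passed 10, log2 CPM of the INK128 replicates had a Pearson correlation of 0.98 across genes and that of the controls 0.806. Control replicate 1 had 1021 counts of 4 Y-linked genes, against 2, 0 and 0 in the other libraries, although donors and recipients were female by the study's methods. Control replicate 3 had a summed level of 23.4 CPM over 9 oocyte markers, against 745 to 1034 CPM in the other libraries. All 8 granulosa markers were above a mean CPM of 10, with sums of 5873 and 7707 CPM with INK128 and 2825 and 6248 CPM in controls. The controls thus stand apart from each other, and fold changes of the tested members without each of them are given beside the results.

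C3, the protein on which the pathways converge, had the lowest log2 fold change among the 23 complement genes described here with a mean CPM above 10. It was counted at 44.4 and 37.9 CPM with INK128 and at 1077 and 798 CPM in controls. All of these values lie far apart between the groups, and the controls were 22.8-fold higher on average (937 ± 197 CPM, SD, n = 2, against 41.1 ± 4.62 CPM, SD, n = 2). The log2 fold change was −4.51 (SE 0.27, adjusted p = 0.0464 by the quasi-likelihood test of edgeR, with p-values adjusted over all 11758 genes by Benjamini and Hochberg's method). Genes were called at an adjusted p below 0.05 with a fold change above 1.5. C3 lies on mm10 chromosome 17, from 57203970 to 57228136 on the minus strand. By its p-value in DESeq2, C3 held place 1 of the 11758 genes (adjusted p = 1.92e-61, DESeq2), and by its log2 fold change in edgeR it held place 54 from the lowest. Without Control replicate 1 the log2 fold change was −4.28, and without Control replicate 3 it was −4.71.

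C3 held a different place among the complement transcripts in each group. Per kilobase of exon, C3 averaged 8 ± 0.898 CPM (SD, n = 2) with INK128, place 6 among the 9 genes, next to C2 at 8.57 ± 0.526 CPM per kilobase (SD, n = 2), and their ranges overlapped (7.36 to 8.63 for C3 and 8.2 to 8.94 for C2). In controls it averaged 182 ± 38.4 CPM per kilobase (SD, n = 2) and held place 2, with a range of 155 to 209 that lay inside that of Serping1 (142 to 315) and above that of C1s1 (64.8 to 113). C3 contributed 7.45% and 6.93% of the summed CPM of the 9 genes in the INK128-treated rOvaries, and 40.5% and 46.6% in controls. The sum itself was 596 and 546 CPM with INK128 and 2658 and 1712 CPM in controls.

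**Figure D1:**
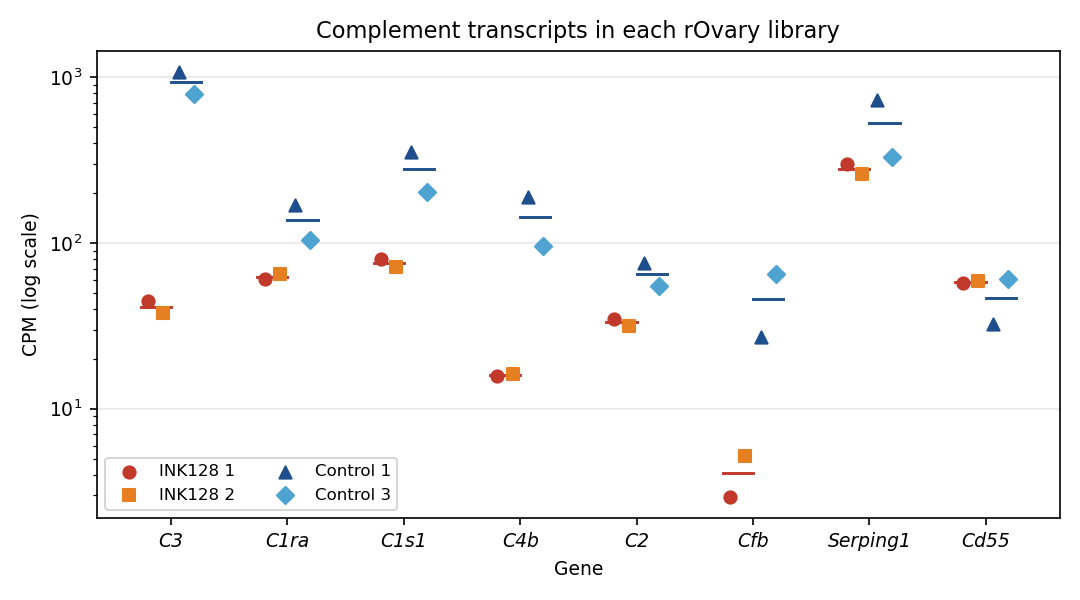
CPM of 8 complement genes in each library, on a log scale. Points are libraries and short lines are group means (n = 2). Cfd, with 0 to 6 counts, is not drawn. C3 shows the widest gap, from 44.4 and 37.9 CPM with INK128 to 1077 and 798 CPM in controls, while the groups overlap for Cd55.

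Of the 9 genes, 8 had a mean CPM above 10 and were tested. edgeR called 4 of them lower with INK128 (C3, C4b, C1s1 and Cfb) and 0 higher, against 3.19% of all tested genes called lower and 3.18% called higher. DESeq2 called 6 lower, adding C1ra and C2, where 15.1% of all tested genes were called lower. For 7 of the 8, both INK128-treated rOvaries lay below both controls, as they did for 34% of tested genes. The median log2 fold change of the 8 was −1.50, beside −0.03 for all tested genes, and it was −1.08 without Control replicate 1 and −1.83 without Control replicate 3. Cfb passed the filter only through its levels in controls, so a difference in this direction was a condition of its being tested. The 4 calls were also lost with limma voom (adjusted p from 0.0599 to 0.153), with a filter at a mean CPM of 1 (edgeR, 0.0555 to 0.0573) and with exon-length offsets (edgeR, 0.0736 to 0.0843). Without either INK128 library edgeR called none of the 11758 genes (lowest adjusted p = 0.381 and 0.438), with 774 lower and 751 higher at an unadjusted p below 0.05 without replicate 1, and 699 and 639 without replicate 2.

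Both proteases of classical initiation lay lower in the 2 INK128 libraries than in the 2 controls, and edgeR called 1 of them. C1s1 encodes the C1s protease, which cleaves C4 and C2. It had 80 and 72 CPM with INK128 and 354 and 203 CPM in controls, without overlap. Its log2 fold change was −1.87 (SE 0.32, edgeR adjusted p = 0.0487), with −1.42 when Control replicate 1 was left out and −2.22 when Control replicate 3 was. C1ra encodes the C1r protease, which activates C1s. It had 61 and 64.6 CPM with INK128 and 170 and 105 CPM in controls. The log2 fold change of −1.13 (SE 0.28, edgeR adjusted p = 0.0678) was not called with all libraries. It was −0.75 without Control replicate 1 and −1.44 without Control replicate 3. On the scale of CPM, C1s1 was 1.31 and 1.11 times C1ra in the INK128-treated rOvaries and 2.08 and 1.92 times C1ra in controls.

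C1s1 (mm10 chromosome 6, 124530345 to 124542359, minus strand) and C1ra (chromosome 6, 124512405 to 124523443, plus strand) are neighbours. The antisense gene Gm16567 lies wholly within exons of C1s1, sharing 576 bases or 18.4% of them, and the strand setting of the counting was not given, so reads there cannot be told apart. Gm16567 had 624 and 584 counts with INK128 and 2885 and 1889 counts in controls, so it too was lower in both treated libraries. The paralogs C1rb and C1s2 had at most 1.42 and 1.81 CPM in any library.

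The subunits of C1q, which recognise immune complexes, had smaller log2 fold changes than the proteases, and that difference was not tested. C1qa had 82.1 and 66.1 CPM with INK128 and 81.1 and 94.3 CPM in controls, and the groups overlapped. C1qb had 68.3 and 69 CPM against 101 and 91.4 CPM. C1qc had 53.3 and 39.9 CPM against 79.4 and 73.3 CPM. None was called by edgeR (log2 fold changes −0.24, −0.48 and −0.71, adjusted p = 0.414, 0.111 and 0.0934), while DESeq2 called C1qc (adjusted p = 0.0394, DESeq2). Without Control replicate 1 the log2 fold changes of C1qa, C1qb and C1qc were −0.35, −0.41 and −0.65. Without Control replicate 3 they were −0.13, −0.55 and −0.77. In many tissues C1q is made by macrophages, and the 9 macrophage and myeloid markers tested had log2 fold changes from −1.93 to −0.30. edgeR called 0 of them and DESeq2 called 6 lower, beside 15.1% of all tested genes, and 3 of the 9 passed the filter only through the controls.

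Both components of the classical C3 convertase, C4b and C2, lay below the controls in each INK128 library, and edgeR called C4b. C4b encodes complement C4, whose larger fragment anchors the convertase (chromosome 17, 34728380 to 34743882, minus strand). It was counted at 15.8 and 16.1 CPM with INK128 and at 189 and 96.2 CPM in controls, so the INK128-treated rOvaries were nearly equal and the controls differed 1.97-fold. The controls were 8.94-fold higher on average, and the log2 fold change was −3.16 (SE 0.39, edgeR adjusted p = 0.0464), −2.59 without Control replicate 1 and −3.57 without Control replicate 3. C4a is a near-identical copy of C4b, so the split of reads between them is uncertain. It had only 23 and 73 counts with INK128 and 19 and 6 in controls, opposite in order to C4b, and C4b was 12.8 and 4.81 times C4a with INK128 and 225 and 380 times C4a in controls.

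C2 encodes the protease of the classical convertase, and Cfb encodes factor B, its counterpart in the alternative pathway. C2 had 34.6 and 31.7 CPM with INK128 and 75.5 and 54.8 CPM in controls, with no overlap. Its log2 fold change of −0.97 (SE 0.23, edgeR adjusted p = 0.0629) was not called, and DESeq2 called it (adjusted p = 0.00651, DESeq2). Leaving out Control replicate 1 gave −0.72 and leaving out Control replicate 3 gave −1.19. Cfb had 2.95 and 5.2 CPM with INK128 and 27 and 64.6 CPM in controls. The log2 fold change of this gene was −3.49 (SE 0.58, edgeR adjusted p = 0.0481), with −3.98 without Control replicate 1 and −2.72 without Control replicate 3. Unlike C3, C4b and C1s1, Cfb was higher in Control replicate 3 than in Control replicate 1, by 2.39 times.

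The counts of C2 and Cfb are uncertain because their genes are adjacent (chromosome 17, 34862604 to 34898265 and 34856374 to 34862518, both on the minus strand) and a further protein-coding gene model on that strand, Gm20547, is made of exons of both. Gm20547 shares 79.5% of the exon bases of Cfb and 42.8% of those of C2. Depending on how shared reads were assigned, reads of either gene may be in the count of Gm20547 or in none. Gm20547 had 27.3 and 23.4 CPM with INK128 and 84.6 and 107 CPM in controls, and it was called lower (log2 fold change −1.92, SE 0.22, edgeR adjusted p = 0.0464). C2, Cfb and Gm20547 were each lower in both INK128-treated rOvaries, but Gm20547 shares exons with both others, so these are not separate observations. C2 also shares 161 exon bases (4.16%) with Zbtb12 on the other strand, whose level was not examined.

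Cfd encodes factor D, the protease that cleaves factor B and is best known as adipsin from fat cells (chromosome 10, 79890853 to 79892655, plus strand). It had 3 and 0 counts with INK128 against 0 and 6 in controls, and no fold change is given. The floor of 3 counts per library, 0.127 to 0.161 CPM, reflects counting error alone. Of 10 adipocyte markers, Adipoq, Lep, Cidec and Adig were at 3 counts or fewer in every library. The summed level of the list was 103 and 137 CPM with INK128 and 31.3 and 264 CPM in controls, of which Plin4 gave 197 CPM in Control replicate 3. Other markers of the list differed in direction. Plin1 had 33 and 44.6 CPM with INK128 against 2.92 and 15.4 CPM in controls, and Fabp4 had 22.7 and 44.8 CPM against 5.45 and 10 CPM. Car3 had 0.644 and 0.782 CPM against 1.86 and 4.6 CPM, and Retn had 0 and 0 counts against 4 and 5.

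Neither inhibitor was called with all 4 libraries. Serping1 (chromosome 2, 84765387 to 84775444, minus strand) encodes C1 inhibitor, which inactivates C1r and C1s, and it had the highest group mean of the 9 genes per kilobase, 120 ± 12.3 CPM with INK128 and 228 ± 123 CPM in controls (SD, n = 2), although in Control replicate 3 C3 was higher, at 155 against 142 CPM per kilobase. It had 300 and 260 CPM with INK128, 733 and 329 CPM in Control replicates 1 and 3. Control replicate 3 lay close above the INK128-treated rOvaries. The log2 fold change of −0.92 (SE 0.42, edgeR adjusted p = 0.186) was −0.23 without Control replicate 1 and −1.39 without Control replicate 3. Cd55 encodes decay-accelerating factor, a membrane protein that dissociates C3 convertases (chromosome 1, 130439027 to 130462744, minus strand). It had 57.2 and 59.2 CPM with INK128 and 32.6 and 60.9 CPM in controls, and the groups overlapped. Its log2 fold change was 0.32 (SE 0.34, edgeR adjusted p = 0.519). The direction depended on the controls, since the value was −0.06 without Control replicate 1 and 0.84 without Control replicate 3. The paralog Cd55b had at most 0.717 CPM in any library.

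Promoter sequences were read for 5 of the 9 genes from RefSeq (GRCm38.p6), as the 250 bases before the transcription start. Those of C3 and C1s1 are shown because both genes were lower in both INK128-treated rOvaries, and that of Cd55 because it was not. Capitals mark matches, on either strand, to GGG, any 5 bases, then CC, a loose form of the kappa B element bound by NF-kB. C3 lies at chr17:57228137-57228386, C1s1 at chr6:124542360-124542609 and Cd55 at chr1:130462745-130462994, all on the minus strand. The RefSeq start of C1ra lies inside the gene as the GENCODE annotation places it, so its window is not shown.
C3: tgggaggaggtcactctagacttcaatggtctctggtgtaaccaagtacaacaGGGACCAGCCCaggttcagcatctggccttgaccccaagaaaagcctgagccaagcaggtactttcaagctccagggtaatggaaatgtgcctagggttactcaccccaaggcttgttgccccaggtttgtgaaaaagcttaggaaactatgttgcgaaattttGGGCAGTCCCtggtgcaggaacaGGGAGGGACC
C1s1: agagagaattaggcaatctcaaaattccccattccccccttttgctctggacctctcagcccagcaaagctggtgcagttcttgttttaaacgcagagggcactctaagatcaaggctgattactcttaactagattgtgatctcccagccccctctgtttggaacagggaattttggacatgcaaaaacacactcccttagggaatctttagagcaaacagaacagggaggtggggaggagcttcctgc
Cd55: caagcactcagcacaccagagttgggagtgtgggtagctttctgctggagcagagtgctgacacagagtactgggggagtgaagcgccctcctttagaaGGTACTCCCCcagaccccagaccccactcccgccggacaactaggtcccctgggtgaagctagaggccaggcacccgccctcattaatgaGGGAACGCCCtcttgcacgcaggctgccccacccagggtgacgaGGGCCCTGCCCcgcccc
C3 and Cd55 each held 4 matches, of which 2 overlapped by all but 1 base, and C1s1 and C1ra held 0. The Cfd promoter held 1. The same pattern occurred in 45.4% of 27025 promoter windows of this length. A STAT-type pattern (TTCNNNGAA, in 7.18% of windows) and the interferon response pattern GAAA, any 2 bases, GAAA (in 3.04%) were in 0 of the 5 windows.

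Beyond these genes, 49 other complement genes were listed, of which 32 had a mean CPM above 1 and 15 a mean CPM above 10. Among the 15, edgeR called 1 lower, where it called 3.19% of all tested genes lower, and 0 higher. DESeq2 called 4 lower (C7, C1qc, Itgam and Itgb2), where it called 15.1% of all tested genes lower, and 0 higher. The median log2 fold change of the 15 in edgeR was −0.48, and it was −0.58 without Control replicate 1 and −0.13 without Control replicate 3. The called gene was C7, which encodes a component of the membrane attack complex. C7 had 13.3 and 11.5 CPM with INK128 and 87.5 and 51.2 CPM in controls, and its log2 fold change was −2.49 (SE 0.33, edgeR adjusted p = 0.0464). Its controls were 5.61-fold higher, with Control replicate 1 above Control replicate 3 as for C3, C4b and C1s1. Leaving out Control replicate 1 gave −2.05 and leaving out Control replicate 3 gave −2.83. The call of C7 was lost without INK128 replicate 1 (−2.61) and without INK128 replicate 2 (−2.40).

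**Figure D2:**
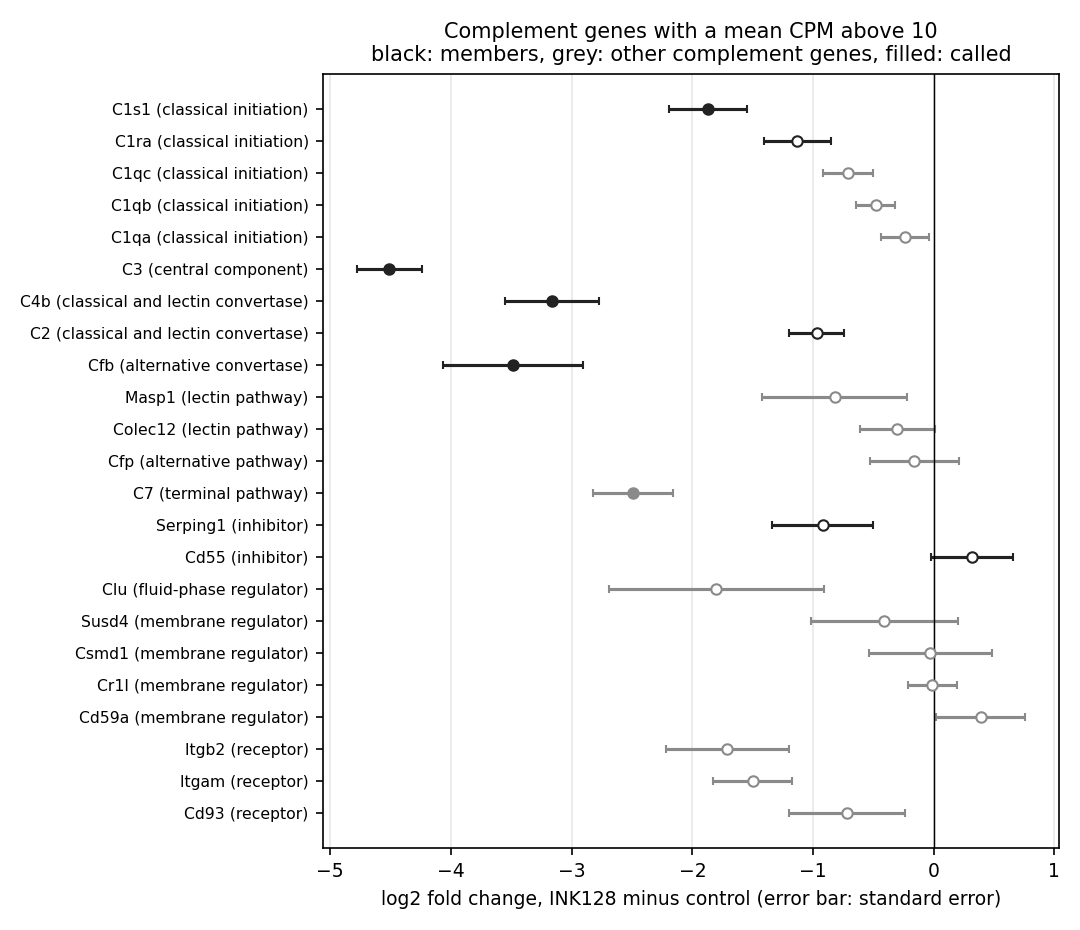
Log2 fold change (INK128 minus control) with its standard error for 23 complement genes with a mean CPM above 10, grouped by role. Filled points are genes called by edgeR. C3, Cfb, C4b, C7 and C1s1 are filled and lie between −4.51 and −1.87, while Cd59a lies furthest to the right at 0.39.

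Among the soluble regulators, Clu, which encodes clusterin, an inhibitor of the membrane attack complex, had 952 and 1122 CPM with INK128, 6271 and 951 CPM in Control replicates 1 and 3. Control replicate 1 was 6.59 times Control replicate 3, and the groups overlapped for Clu (log2 fold change −1.80, adjusted p = 0.211, edgeR). The value was 0.12 without Control replicate 1 and −2.60 without Control replicate 3.

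Low transcripts were tested with all 17631 genes whose mean CPM passed 1, of which edgeR called 0 genes, which is 0% (3133 lower and 2664 higher at an unadjusted p below 0.05). Of the 32 other complement genes in that range, 20 had a negative and 12 a positive log2 fold change, and 8 had an unadjusted p below 0.05. Both INK128-treated rOvaries lay below both controls for 11 of them, beside 35.3% of all genes in that range, and above for 6, beside 30.9% of all genes in that range. Of the 11, 3 passed the filter only through the controls, and of the 6, 3 passed only through the INK128 libraries, which fixed their direction. Cfi encodes factor I, the protease that inactivates C3b. It had 0.429 and 0.598 CPM with INK128 and 15 and 3.54 CPM in controls, and its log2 fold change was −4.10 (SE 0.88, edgeR adjusted p = 0.0655). Cfi passed the filter only through the controls, which fixed its direction.

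All 6 genes listed here as complement receptors with a mean CPM above 1 had negative log2 fold changes. In 4 of them both INK128 libraries lay below both controls, beside 35.3% of all genes in that range. Itgam and Itgb2 encode the chains of complement receptor 3, and Itgam is also counted among the macrophage and myeloid markers. Itgam had 6.82 and 5.8 CPM against 14.7 and 21.1 CPM in controls (log2 fold change −1.50, SE 0.33, edgeR adjusted p = 0.0583). Itgb2 had 6.49 and 6.62 CPM against 12.4 and 30.6 CPM (log2 fold change −1.71, SE 0.51, edgeR adjusted p = 0.0907). Neither was called by edgeR, and DESeq2 called both, but both genes were tested at this filter only through their levels in controls. With Control replicate 1 or 3 left out, the log2 fold changes were −1.74 and −1.22 for Itgam and −2.22 and −0.92 for Itgb2. The groups overlapped for Itgax, with 3.06 and 3.91 CPM against 3.63 and 15.6 CPM, and for Cd93, with 56.8 and 67.2 CPM against 56.6 and 148 CPM. C3ar1, the receptor of the anaphylatoxin C3a, had 6.33 and 4.51 CPM with INK128 and 9.25 and 9.15 CPM in controls. C5ar1, the receptor of C5a, had 5.21 and 5.61 CPM with INK128 and 9.83 and 6.54 CPM in controls. The mouse complement C5 gene, Hc, stayed at or below 1.01 CPM in every library.

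Among the membrane regulators edgeR made no call with all 4 libraries. Cr1l, which encodes Crry, a broad inhibitor of rodent convertases, had 56.5 and 69 CPM with INK128 and 58.9 and 67.3 CPM in controls (log2 fold change −0.01, SE 0.20, edgeR adjusted p = 0.978). Cd59a, an inhibitor of the membrane attack complex, had 57 and 71.2 CPM against 65 and 32.9 CPM (log2 fold change 0.39, SE 0.37, edgeR adjusted p = 0.481). The groups overlapped for both, and for Cd59a the value was 0.96 without Control replicate 1 and −0.02 without Control replicate 3. Cr1l changed sign as well, from −0.10 to 0.09.

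The graft lies against host kidney and receives host blood, so markers of other cell types were read beside the complement genes, and in bulk tissue fewer cells of a type and less RNA per cell cannot be told apart. The 20 kidney markers summed to 131 and 234 CPM with INK128, 841 and 1792 CPM in Control replicates 1 and 3. Of the 14 tested, 9 passed the filter only through the controls (mean CPM of at most 10 with INK128), which fixed their direction. edgeR called 7 of the 14 lower and DESeq2 13, with a median log2 fold change of −4.00, beside 3.19% and 15.1% of all tested genes called lower. The 5 with a mean CPM over 10 in both groups lay lower in both INK128 libraries, where 34% of all tested genes did. Umod, a defining kidney marker, had 7 and 11 counts with INK128 and 137 and 1297 counts in controls, but edgeR did not call it (adjusted p = 0.0562). Nphs1, too low for that test, lay the other way, with 7.41 and 8.79 CPM with INK128 and 3.67 and 6.37 CPM in controls. Between the controls, 17 of the 20 kidney markers were higher in Control replicate 3, as was Cfb. Higher in Control replicate 1 were 3 of the 20 kidney markers, 5 of the 7 mesothelial, 9 of the 9 oocyte and 4 of the 4 Y-linked genes, as were C3, C4b, C1s1, C1ra, C2, C7 and Serping1. Mesothelial and surface epithelial markers summed to 67.2 and 60.5 CPM with INK128, 399 and 150 CPM in Control replicates 1 and 3. Only 3 of the 7 were tested, 2 of them through the controls alone. Wt1 gave 311 and 64.6 CPM of the sums of Control replicates 1 and 3, and without it the controls had 87.9 and 85.2 CPM and the INK128 libraries 10.9 and 14.2 CPM. Macrophage and myeloid markers summed to 282 and 275 CPM with INK128 and to 452 and 619 CPM in controls, and 7 of 9 tested were lower in both INK128 libraries, beside 34% of all tested genes. Of these 9, 3 passed the filter only through the controls. The part of these cells in the complement differences was not tested.

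Stromal and endothelial markers had 1 call each by edgeR, beside 3.19% of all tested genes called lower. Fibroblast and stromal markers summed to 14531 and 12852 CPM with INK128 and to 11676 and 11373 CPM in controls. Of 9 tested stromal markers 1, Ly6a, was called lower. Endothelial markers summed to 393 and 425 CPM with INK128 and to 479 and 647 CPM in controls, with 1 of 6 called lower. Both endothelial sums with INK128 were below those of the controls, but this order rested on Kdr. Without Kdr the sums were 337 and 375 CPM with INK128 and 312 and 505 CPM in controls, and the groups overlapped. None of the 8 lymphocyte markers reached the filter, so none was tested, and they stayed at low sums of 8.53 and 8 CPM with INK128 and 11.6 and 36.5 CPM in controls. Hepatocyte markers summed to 87.1 and 86.8 CPM with INK128 and 189 and 99.1 CPM in controls. Trf gave 70.2 and 71.1 CPM of these sums with INK128 and 152 and 93.4 CPM in controls. Without Trf the groups overlapped, with 17 and 15.7 CPM against 36.7 and 5.69 CPM. The defining marker Alb did not exceed 1.56 CPM in any library.

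**Figure D3:**
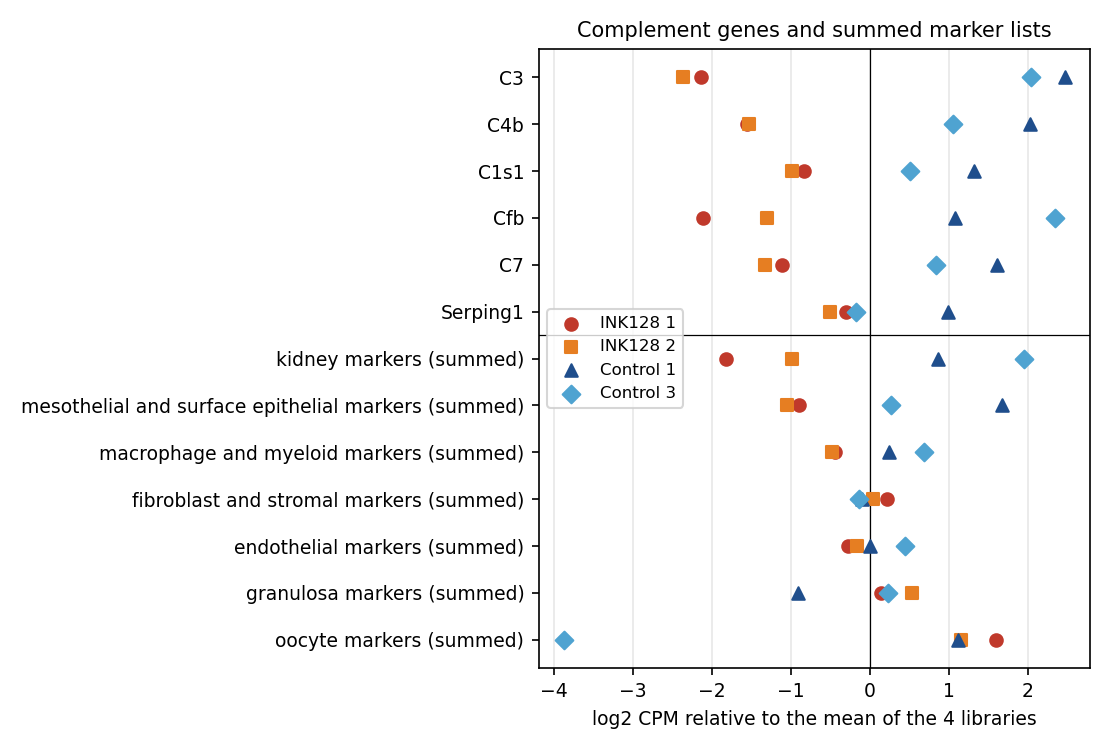
Log2 CPM of 6 complement genes (above the line) and of the summed levels of 7 marker lists (below it), each relative to the mean of the 4 libraries. Points are libraries. Kidney, mesothelial, macrophage and endothelial sums have both INK128-treated rOvaries to the left of both controls, as have C3, C4b, C1s1, Cfb, C7 and Serping1. Wt1 sets the gap between the controls in the mesothelial sum, and without Kdr the endothelial sums of the groups overlap. The oocyte sum is set apart by Control replicate 3 at 23.4 CPM.

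The size of each fold change was followed over 12 alternatives of test, scaling, filter, length offsets and left-out libraries. C3 stayed between −4.71 and −4.28 on the log2 scale, C4b between −3.57 and −2.59, Cfb between −3.98 and −2.72 and C1s1 between −2.22 and −1.42. C1ra stayed between −1.44 and −0.75, C2 between −1.19 and −0.72 and Serping1 between −1.39 and −0.23. Cd55 ranged from −0.06 to 0.84 and was the 1 gene of the 8 whose direction changed.

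**Figure D4:**
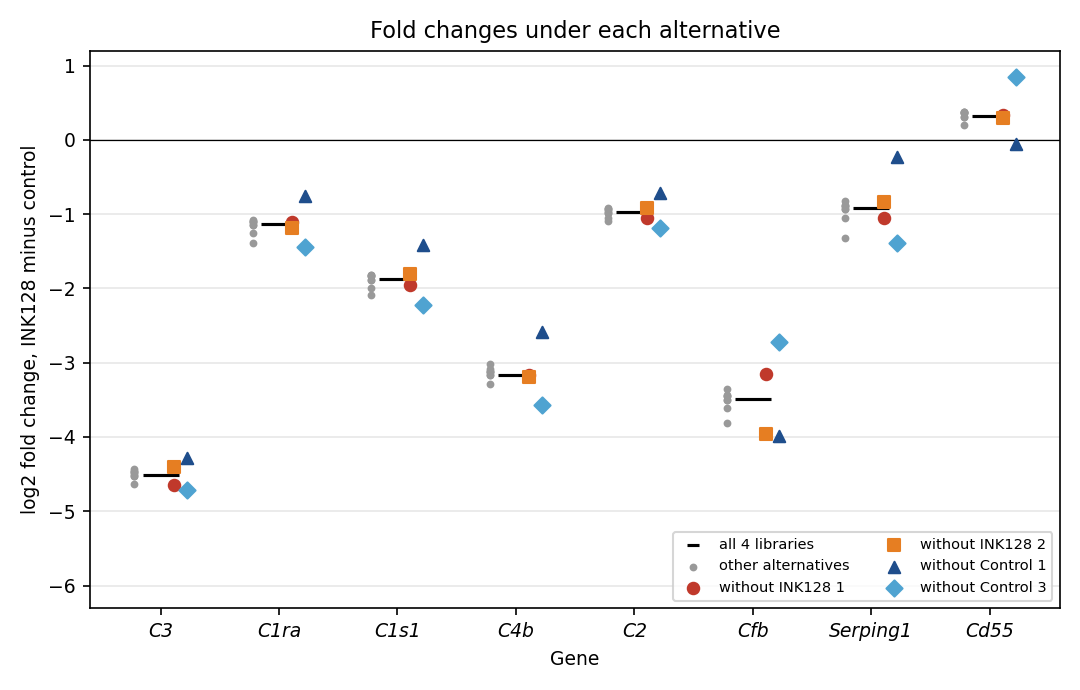
Log2 fold change (INK128 minus control) of 8 complement genes. Black bars use all 4 libraries, coloured points leave out 1 library each, and grey points are the other alternatives. C3 keeps a narrow range from −4.71 to −4.28, whereas Serping1 reaches −0.23 and Cd55 −0.06 without Control replicate 1.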

How the data were processed

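RNA-seq of 4 rOvary libraries was analysed, 2 INK128 and 2 Control, with groups and replicate numbers taken from the labels. According to the study's methods and the processing notes, reads were cleaned by Trimmomatic, mapped by HISAT2 (build mm10) and assigned to genes by featureCounts. Their versions and the strand setting are not given in the sources used here. The deposited values are the raw counts of each library, neither normalized nor pooled by the authors. Depth bears on low genes, where 3 counts correspond to 0.127 to 0.161 CPM.

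CPM used TMM factors over the tested genes (edgeR 4.0.16, R 4.3.3). Genes with a mean CPM above 10 were tested with edgeR's quasi-likelihood test, low genes in the same test among genes with a mean CPM above 1, with Benjamini-Hochberg adjustment. Standard errors (SE) are the absolute log2 fold change over the root of F. DESeq2 1.42.0 and limma 3.58.1 (voom) were alternatives, and TMM over all genes was added after the data were seen. The fits were also run on simulated counts with the same spread in both groups. That simulation cannot show how the fits behave with the unequal spread of these groups. Replicates differed beyond sampling noise (chi-square per degree of freedom 40.9 and 227). For any single gene, the smallest two-sided p of an exact permutation test is 0.333. Positions and exon lengths came from GENCODE release M21 on mm10, with a length for 99.5% of tested genes.

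The members and the lists (other complement genes, kidney, macrophage and myeloid, lymphocyte, adipocyte, fibroblast and stromal, mesothelial, endothelial, granulosa, oocyte, hepatocyte and Y-linked genes) were chosen with earlier results of these data known. All members were named. Other complement genes could be named with values above a mean CPM of 1, and those printed were selected from them. Ly6a, Alb, Trf, Umod, Nphs1, Kdr, Hc, Wt1, Plin1, Plin4, Fabp4, Car3, Retn and the low paralogs were singled out after their values were seen. 1 complement gene is not reported here and was left out of the lists and figures.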

Additional observations from a re-analysis of the deposited data

How the results depend on the processing

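With all 4 libraries edgeR called 375 genes lower and 374 higher, 4 of the complement members and 1 other complement gene lower. The calls lay close to the threshold and moved with the setting, and the cause was not tested. DESeq2 called 1772 lower and 1595 higher and 4 other complement genes, with C1ra (−1.14) and C2 (−0.98) called as well. With at least 1 count as the filter, edgeR called 1953 lower and 1152 higher, 5 other complement genes lower, and C1ra (−1.10) and C2 (−0.93) too. Scaling by library totals gave 580 lower and 290 higher, with a median of all genes of −0.15. limma voom called 0 genes (1828 lower and 2151 higher at an unadjusted p below 0.05), with log2 fold changes of −4.50 for C3, −1.82 for C1s1, −3.08 for C4b and −3.36 for Cfb. edgeR with a mean CPM above 1 also called 0 (3133 and 2664 unadjusted), with −4.46, −1.82, −3.11 and −3.43 for the same genes, as did edgeR with offsets for exon length (0 called, 1654 and 1484 unadjusted), with −4.43, −2.09, −3.02 and −3.81, and with a median of −0.76 in place of −0.48 for the other complement genes.

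With 1 library left out, the lone sample of a group is assumed to vary like the other group. edgeR then called 0 to 2723 genes lower and 0 to 2664 higher, with 0 genes when either INK128 library was left out (774 and 751, or 699 and 639, unadjusted) and the highest counts without Control replicate 1. Members called lower ranged from 0 to 7 and higher from 0 to 1, other complement genes from 0 to 7 lower and from 0 to 2 higher. The median log2 fold change ranged from −1.83 to −1.08 for the members and from −0.58 to −0.13 for the other complement genes. Log2 fold changes ranged from −4.71 to −4.28 for C3, −2.22 to −1.42 for C1s1, −3.57 to −2.59 for C4b, −3.98 to −2.72 for Cfb, −1.44 to −0.75 for C1ra, −1.19 to −0.72 for C2, −1.39 to −0.23 for Serping1 and −0.06 to 0.84 for Cd55, whose reversal to −0.06 came without Control replicate 1. RLE size factors, TMM over all genes and no limit on the fold change each left 4 members called. Requiring 2 libraries over a CPM of 10 kept 8 members, as the mean did. No paired analysis was possible because the groups share only replicate number 1.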

Other observations

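A few low complement transcripts had the order of libraries of the oocyte markers, whose sums were 1034 and 763 CPM with INK128, 745 and 23.4 CPM in Control replicates 1 and 3. Mbl2, which encodes a mannose-binding lectin, had 11.7 and 7.04 CPM with INK128, 5.45 and 0.253 CPM in Control replicates 1 and 3. C8b, which encodes a chain of complement C8, had 3.33 and 2.16 CPM with INK128, 1.86 and 0.0843 CPM in Control replicates 1 and 3. Neither was called by edgeR in the test of low genes (adjusted p = 0.374 and 0.435), C8b passed that filter only through the INK128 libraries, and with 4 libraries this likeness is a description only.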
